A study of Mus musculus with 9 samples.

Results

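The miR-15/16 family is a set of microRNAs (miRNAs), short RNAs that bind messenger RNAs through their 5′ end and lower the output of those messages. The 5 probes named for miR-15a, miR-15b, miR-16, miR-195 and miR-497 were taken by name from the 582 miRNA probes of the deposited table, without use of any measured value. Each name matched 1 probe, and all 5 lay above the detection floor on all 9 arrays. Probes for hairpin precursors and a retired probe named old_j-mir-16 are not members.

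Marrow came from female C57Bl6/J mice aged 6 weeks. Of 8 animals, 3 had received 5-fluorouracil (5-FU) once at 150 mg/kg into the peritoneum and were sampled at day 4, and 5 were untreated. 5-FU blocks thymidylate synthesis, so cells that copy their DNA die and the marrow loses its cycling progenitors. Red cells were lysed before total RNA was isolated, and miRNAs were read by fluorescence on probe-coupled beads, in a batch 2 that held 5-FU animals 1, 2 and 3 and a batch 1 that held 5-FU animal 1 again and all 5 untreated animals.

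The members of this family are known for restraining the cell cycle and survival. Their recorded targets include D-type and E-type cyclins and Bcl2, and loss of the miR-15a and miR-16 locus is frequent in human chronic lymphocytic leukaemia. They are made from paired genes. RefSeq (build GRCm38.p6) places Mir15a and Mir16-1 within Dleu2 on chromosome 14, Mir15b and Mir16-2 within Smc4 on chromosome 3, and Mir497 and Mir195a next to each other on chromosome 11. Both Mir16 genes give the same mature miR-16, so its probe cannot say which locus the RNA came from. The mature sequences are shown because the family is defined by them and because near-identical members may be read by each other's probes. Capitals mark the seed, bases 2 to 8 from the 5′ end.
miR-15a-5p: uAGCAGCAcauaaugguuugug
miR-15b-5p: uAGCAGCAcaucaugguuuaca
miR-16-5p: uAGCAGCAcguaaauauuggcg
miR-195a-5p: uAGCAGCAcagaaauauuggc
miR-497a-5p: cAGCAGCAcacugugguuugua

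All 5 share 1 seed. The mature miR-15a lies at chr14:61632075-61632096 (minus strand), with a mature miR-16 copy at chr14:61631936-61631957, 117 bases away. The mature miR-15b lies at chr3:69009775-69009796 (plus strand) and the other miR-16 copy at chr3:69009918-69009939. miR-497a lies at chr11:70234730-70234751 and miR-195a at chr11:70235062-70235082, both on the plus strand. The closest pair in sequence is miR-16 and miR-195a, which differ at 2 of 21 compared positions (G10A and U11G, miR-16 base first, positions counted from the 5′ end). miR-15a and miR-15b differ at 4 of 22 positions, and 3 of those are the last 3 bases. How far the bead probes distinguish such neighbours was not tested.

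Across the family, 3 members were higher and 2 lower in 5-FU marrow, but 0 of 5 passed the test (limma on log2 values, Benjamini-Hochberg adjusted p under 0.05 over 379 tested probes). The background was 40.6% of tested probes called, with 15.6% higher and 25.1% lower. In this fit all untreated animals were in batch 1 and 5-FU animals 2 and 3 in batch 2. Neither the members' values nor this background can therefore separate 5-FU from batch. At an unadjusted p under 0.05, 2 of 5 members passed (miR-195 and miR-497), against 48.5% of all tested probes. The methods' t-test was run over the 9 arrays, so that both arrays of 5-FU animal 1 counted as separate treated values. It called 0 of 5 members and 25.6% of all tested probes after adjustment, and 1 member and 38.5% of the probes before it. Among the 5 miRNAs in the authors' deposited table, 0 had a false discovery rate under 0.05, with miR-497 nearest at 0.0522, against 54.8% of the 168 probes given a rate there. The median change of the members was 0.11 on the log2 scale, against -0.16 over all tested probes. Fewer cells of a type and less RNA per cell cannot be told apart in whole marrow.

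**Figure D1:**
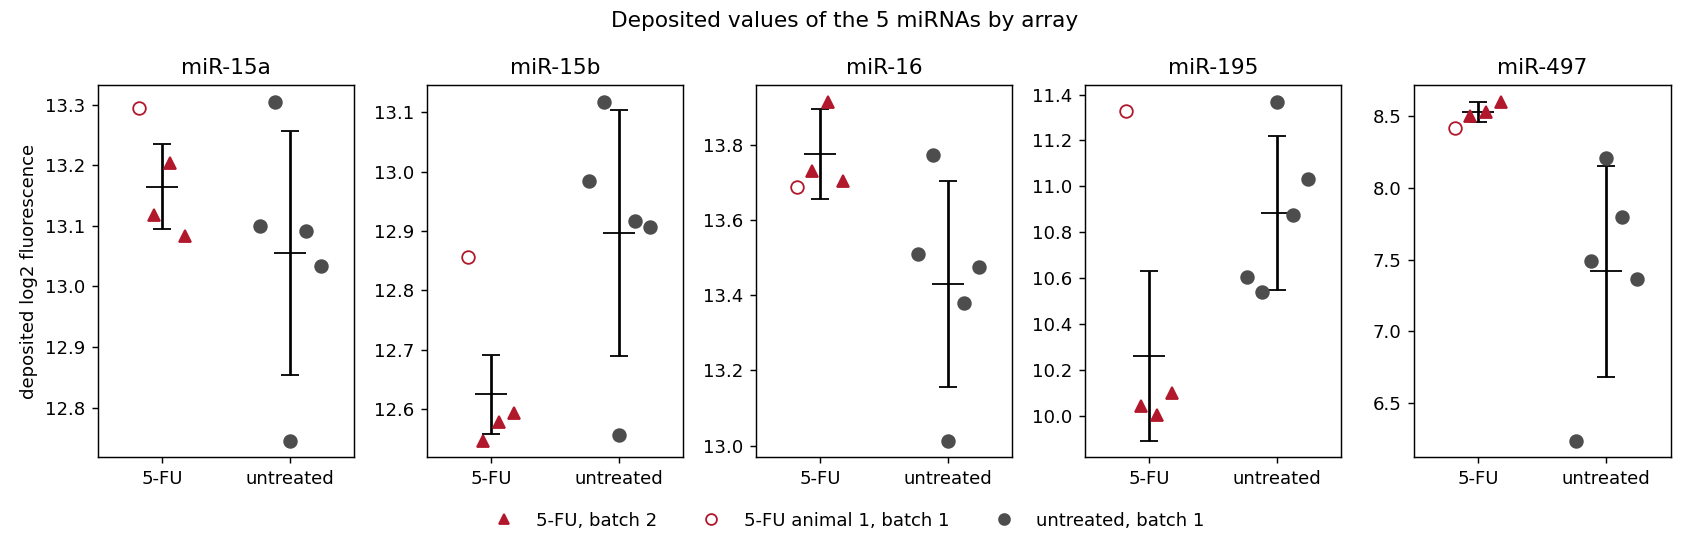
Deposited log2 fluorescence of the 5 miRNAs by array, with 5-FU left of untreated in each panel, and its own scale for each miRNA. Bars give the mean and SD over 3 5-FU animals (the 2 arrays of animal 1 averaged) and 5 untreated animals. The 5-FU points of miR-497 all lie above the untreated ones, while for miR-195 the open circle (batch 1) stands apart from the 3 triangles (batch 2).

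miR-15a, from the Dleu2 cluster, was at nearly the same level in both groups. Its deposited log2 value was 13.21 in 5-FU animal 1, 13.20 in animal 2 and 13.08 in animal 3, against 13.10, 13.30, 12.75, 13.09 and 13.03 in untreated animals 1 to 5. The 5-FU animals all lay inside the untreated range. The change was 0.11 (SE 0.12, limma adjusted p = 0.490), and its 95% confidence interval ran from -0.17 to 0.39.

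miR-16, the product of both miR-15 clusters, leaned upward. It stood at 13.71, 13.91 and 13.70 in 5-FU animals 1, 2 and 3, against 13.51, 13.77, 13.01, 13.38 and 13.47 in untreated animals 1 to 5. The groups overlapped, since untreated animal 2 was above 5-FU animals 1 and 3. The change was 0.34 (SE 0.16, limma adjusted p = 0.137), or 1.27-fold with an interval of 0.972-fold to 1.66-fold. Its probe had the highest raw fluorescence of all 582 on each of the 9 arrays, at 12236 to 14764 units in 5-FU marrow and 11327 to 14533 units in untreated marrow. Whether the bead signal was still linear at that brightness was not tested.

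miR-15b, from the Smc4 cluster, leaned downward. It stood at 12.70, 12.58 and 12.59 in 5-FU animals 1, 2 and 3, against 12.98, 13.12, 12.56, 12.92 and 12.91 in untreated animals 1 to 5. All 3 treated animals were below 4 of the 5 untreated ones, and untreated animal 3 was lower still. The change was -0.27 (SE 0.12, limma adjusted p = 0.122), with an interval of -0.56 to 0.02. Without untreated animal 3 the change was -0.36 and passed (limma adjusted p = 0.00912), as did 44.3% of all tested probes. That animal had the lowest deposited value of miR-15a, miR-15b and miR-16 and the highest of miR-195 and miR-497 among the untreated, and its median over the tested probes was 5.90, against 5.17 to 5.46 in the other untreated animals.

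miR-497 showed the largest change of the family. Its deposited value was 8.46, 8.53 and 8.60 in 5-FU animals 1, 2 and 3, against 6.24, 7.49, 8.21, 7.80 and 7.36 in untreated animals 1 to 5. All 3 treated animals lay above all 5 untreated ones, as was the case for 24.3% of tested probes. The SD was 0.07 over the treated and 0.74 over the untreated animals. The change was 1.11 (SE 0.41, limma adjusted p = 0.0727), a fold of 2.16 with a 95% interval of 1.09 to 4.28, and 3.69% of tested probes changed upward by at least as much. Leaving out untreated animal 1, the lowest, gave a change of 0.82 that passed (limma adjusted p = 0.0287), as did 38.3% of all tested probes.

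miR-195, encoded beside miR-497, was lower in the deposited table. It stood at 10.69, 10.00 and 10.10 in 5-FU animals 1, 2 and 3, against 10.60, 10.54, 11.37, 10.88 and 11.03 in untreated animals 1 to 5. The change was -0.62 (SE 0.24, limma adjusted p = 0.0809), a fold of 0.650 with a 95% interval of 0.438 to 0.965. The value of 5-FU animal 1 is the mean of 11.33 in batch 1 and 10.04 in batch 2. On the batch 1 array this animal exceeded 4 of 5 untreated animals, all of which were run in batch 1, and on the batch 2 array it lay below all 5. The difference between these arrays, -1.29, was larger in size than that of all but 3 of the 379 tested probes. For the other members it was -0.18 (miR-15a), -0.31 (miR-15b), 0.04 (miR-16) and 0.09 (miR-497).

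The raw table gave the opposite direction for miR-195. Raw fluorescence in 5-FU marrow was 2406 in batch 1 and 4847 (animal 1), 4102 (animal 2) and 5097.5 (animal 3) in batch 2, against 1226, 1650, 2289, 2571 and 4659 in untreated marrow, in ascending order. The batch 2 arrays were thus high in raw signal and low in deposited value. The deposited log2 value minus the log2 raw value above the water wells was taken for each probe and array, relative to its median over the bead pool. For miR-195 it was the same on all 3 batch 2 arrays to 2 decimals, a probe constant of -1.33, and was lower in 1 of the 132 probes above log2 7 on all 3 of these arrays. It was 0.53 for miR-15a, 0.22 for miR-15b, 0.75 for miR-16 and 0.29 for miR-497, over an SD of 0.48 among the 132 probes. On the batch 1 array of 5-FU animal 1 it was 0.00 for each member. The sources used here do not say where the constant comes from.

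In the raw table, which lacks that constant, miR-195 was at a higher level in 5-FU marrow. After scaling of the raw values to an equal total, miR-195 was at 11.81, 11.98 and 12.06 in 5-FU animals 1, 2 and 3, against 10.82 to 11.73 in untreated animals. Animal 1's batch 1 array (11.61) lay below the highest untreated value. The change was 0.77 (SE 0.22, limma adjusted p = 0.0638, where 14.8% of probes passed). With quantile normalization of the raw values it was 0.73 and passed (limma adjusted p = 0.00228, where 24.8% of probes passed). Scaling to the control beads gave 0.91 (limma adjusted p = 0.283, where 0.792% passed). In the fit with batch as a term over all 9 deposited arrays it was 0.45 (limma adjusted p = 0.487, where 9.76% passed), a value set by the batch 1 array of 5-FU animal 1 alone. The sign of the miR-195 change thus differed between the deposited and the raw table. Raw values scaled to an equal total still differed between the 2 arrays of 5-FU animal 1. Batch 2 minus batch 1 was 0.39 for miR-195, 0.37 for miR-497, -0.35 for miR-15a, -0.17 for miR-15b and -0.35 for miR-16. Within batch 1, which held 1 5-FU array, the raw change with an equal total was 0.43 for miR-195 and 1.12 for miR-497. With 1 5-FU array there is no spread between treated animals, so the part of batch in the raw changes was not tested.

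**Figure D2:**
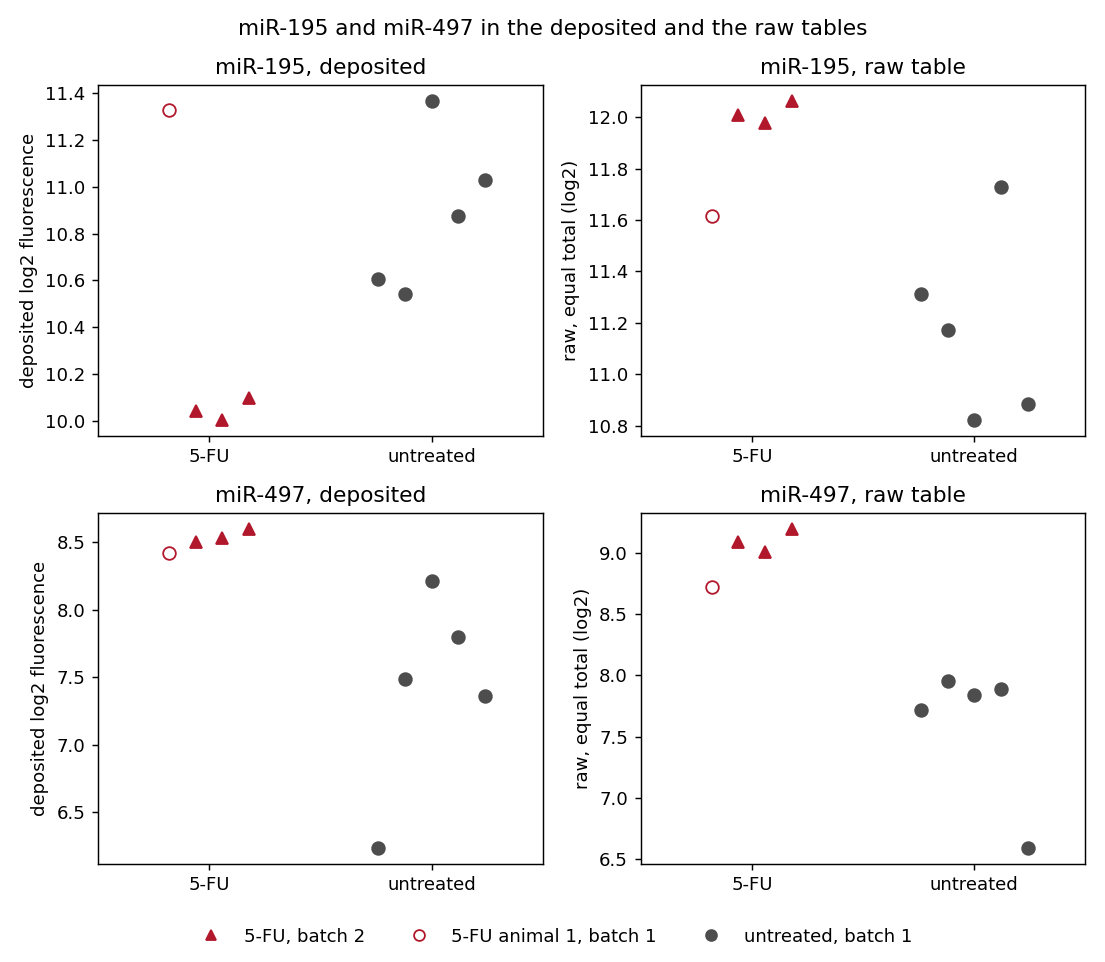
miR-195 (top) and miR-497 (bottom) by array in the deposited table (left) and in the raw table scaled to an equal total (right), on log2 axes, with 5-FU left of untreated. For miR-195 the batch 2 triangles lie below the untreated animals on the left and above them on the right, while for miR-497 all 5-FU points lie above the untreated ones in both.

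For miR-497 the tables gave 1 direction. Raw fluorescence was 335 in batch 1 and 651, 536 and 712 in batch 2 in 5-FU marrow, against 98, 167, 226, 258.5 and 340 in untreated marrow, over a water well of 15. The batch 1 array was thus inside the untreated range in unscaled units. Scaled to an equal total, the 5-FU animals were at 8.90, 9.01 and 9.20 and the untreated animals at 6.59 to 7.96. The change was 1.44 with an equal total (limma adjusted p = 0.0335, where 14.8% of probes passed). After quantile normalization the change was 1.54 (limma adjusted p = 0.0104, where 24.8% of probes passed). Relative to the control beads it was 1.45 (limma adjusted p = 0.185). Fitted over all 9 arrays with a batch term, it was 1.00 (limma adjusted p = 0.470), from 1 treated array in batch 1 that exceeded all 5 untreated ones. Over 24 alternative settings the change ranged from 0.82 to 1.57, above 0 in all 24 and past the threshold in 8. These settings share arrays, and several repeat the same change, so the counts are not independent support. The share of all tested probes that kept their sign was not computed.

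The change of miR-16 and miR-15a was smaller in raw values than in deposited ones. miR-16 gave 0.0041 with an equal total and 0.14 relative to the control beads (limma adjusted p = 0.792 for the second). In the quantile fit its change was 0 by construction, as the brightest probe of every array. miR-15a was at -0.050 with an equal total and miR-15b at -0.17. Among the raw settings miR-15b passed only with quantile normalization (-0.18, limma adjusted p = 0.0252, where 24.8% of probes passed). Centred on the median of the tested probes, which moved the median change of all probes to 0.30, the deposited change of miR-16 was 0.80 (limma adjusted p = 0.0402, where 44.6% of probes passed).

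**Figure D3:**
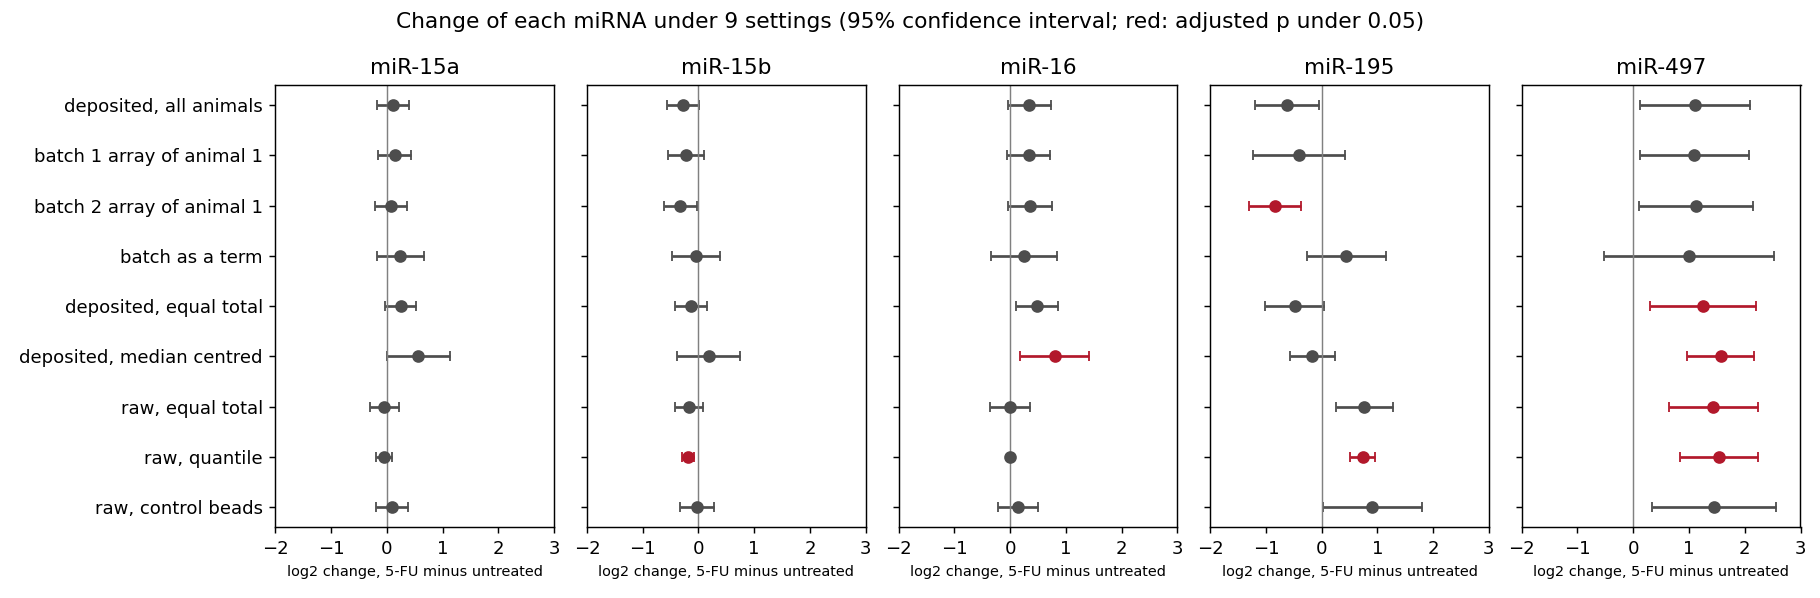
Change of each miRNA, 5-FU minus untreated on the log2 scale, under 9 settings, with 95% confidence intervals from limma and red marking an adjusted p under 0.05. miR-497 lies right of 0 in each setting, and miR-195 moves from the left of 0 in the deposited settings without a batch term to the right of 0 in the batch and raw settings.

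Members of neighbouring genes were next compared on the same array, where a scaling constant shared by both probes cancels. The probe constants described above differ between probes and do not cancel. Since miR-16 comes from both loci, the differences with it set the product of 1 locus against that of both. The probes of miR-15a, miR-15b and miR-16 sit in 1 bead pool. miR-195 is in that pool and miR-497 in the other, so their difference still holds the pool constants. These differences are not ratios of molecule numbers, since each probe has its own response.

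The log2 difference miR-15b minus miR-16 was -1.01, -1.34 and -1.11 in 5-FU animals 1, 2 and 3, against -0.52, -0.66, -0.46, -0.46 and -0.57 in untreated animals 1 to 5. The groups did not overlap, and the shift was -0.62 (two-sided exact permutation p = 0.0357, which is the lowest value that 56 splits of 8 animals permit, and 0.0357 after adjustment over 3 such differences). Lack of overlap was common here: of single tested probes, 24.3% lay above and 25.6% below all untreated animals in all 3 5-FU animals. The share among other probe pairs was not computed, for this or the other partner differences. The batch 2 arrays hold probe constants of 0.22 for miR-15b and 0.75 for miR-16, which lower this difference in deposited values. In the raw values, which lack the probe constants, the shift was -0.18 (exact permutation p = 0.0714). All untreated arrays were in batch 1, so these permutation p-values cannot separate 5-FU from batch. The raw difference was -0.83 on the batch 1 array and -0.65, -0.81 and -0.58 on the batch 2 arrays of 5-FU marrow, against -0.46 to -0.66 in untreated marrow. The batch 1 array of 5-FU animal 1 and the array of animal 2 were thus below all untreated arrays, and the other 2 were inside their range.

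For miR-15a minus miR-16 the shift in deposited values was -0.24, again with no overlap (exact permutation p = 0.0357, two-sided). The batch 2 constants were 0.53 for miR-15a and 0.75 for miR-16, and this test also cannot separate 5-FU from batch. The difference was -0.50, -0.71 and -0.62 in 5-FU animals 1, 2 and 3, against -0.41, -0.47, -0.27, -0.29 and -0.44 in untreated animals 1 to 5. In raw values the 5-FU arrays ran from -0.49 to -0.39 and the untreated from -0.47 to -0.27, a shift of -0.054 (exact permutation p = 0.464). On the batch 1 array alone the deposited difference was -0.39, inside the untreated range.

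For miR-497 minus miR-195 the shift was 1.73 in deposited values (exact permutation p = 0.0357, two-sided). The batch 2 constants were 0.29 for miR-497 and -1.33 for miR-195, and this test also cannot separate 5-FU from batch. The difference was -2.22, -1.47 and -1.50 in 5-FU animals 1, 2 and 3, against -4.37, -3.05, -3.16, -3.08 and -3.67 in untreated animals 1 to 5. In raw values it lay between -2.97 and -2.86 on the 4 5-FU arrays, and between -4.29 and -2.98 on the untreated ones. The groups did not overlap, though only by a small margin (-2.97 against -2.98), and the raw shift was 0.67 (two-sided exact permutation p = 0.0357). These raw values were unscaled, and the 2 probes are in different bead pools. In the deposited table animal 1's batch 1 array stood at -2.91, above all 5 untreated animals.

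**Figure D4:**
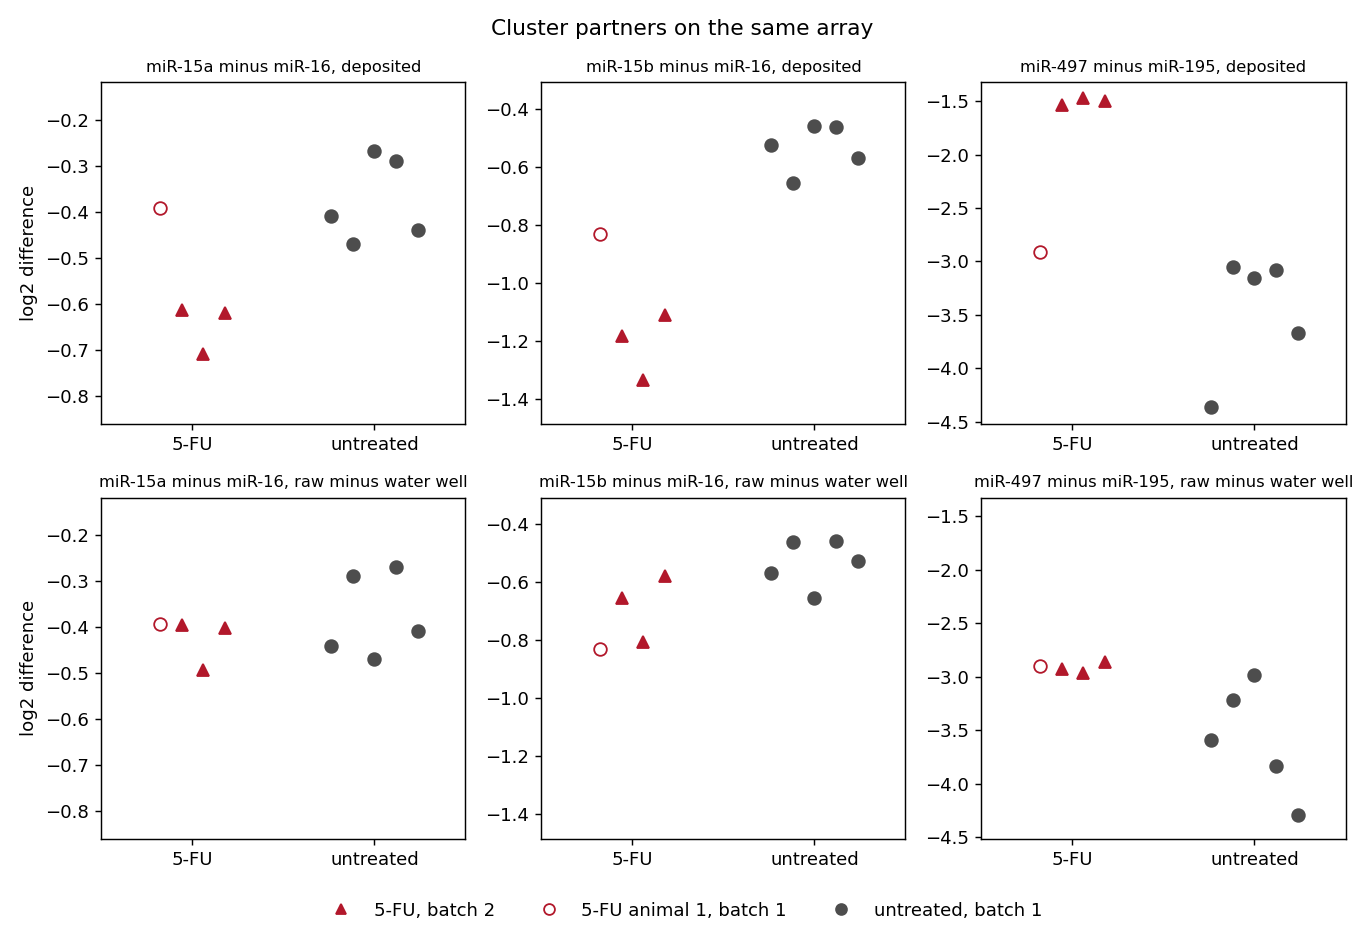
Log2 difference between cluster partners on each array, in deposited values (top) and raw values above the water wells (bottom), with 5-FU left of untreated and the same scale in both rows. For the pairs with miR-16 the 3 batch 2 triangles are below all untreated points in the deposited table, whereas in raw values 2 of the 3 fall inside the untreated range for each pair.

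The probes of miR-15a, miR-15b and miR-16 kept steadier ratios to each other than to miR-195 or miR-497. Over the 8 animals the SD of the log2 ratio between members was 0.15 for miR-15a and miR-16, 0.20 for miR-15a and miR-15b, and 0.34 for miR-15b and miR-16. In the 5 untreated animals alone miR-15a and miR-15b, from different chromosomes, kept a ratio with an SD of 0.034. This was not particular to the family. In the same animals the SD to miR-15b was 0.029 for miR-25 and 0.033 for a hairpin-named probe for mir-29a. That of miR-23a to miR-15a was 0.037. Ratios of these 3 to miR-195 had SDs of 0.47 to 0.72, and ratios to miR-497 of 0.80 to 0.98. The pair miR-195 and miR-497 had an SD of 1.02 over 8 animals and 0.56 over the untreated.

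Among the 227 other probes above the floor in all 8 animals, the steadiest ratio to miR-15a was that of let-7g (SD 0.06), then miR-23b (0.07) and let-7a (0.08), against a median SD of 0.56 over all these probes. For miR-15b the nearest were miR-20a (0.05), miR-17 (0.06) and let-7i (0.07). For miR-16 they were miR-23a (0.07), miR-142-3p (0.09) and miR-21 (0.09). miR-195 was nearest to miR-7 (0.14), miR-148b (0.15) and a hairpin-named probe for mir-378 (0.16). The profile of miR-497 was less closely followed by any probe, with 2 hairpin-named probes for mir-199b at 0.28 and 0.40, and miR-511 at 0.44. The ratios include the difference between the groups and rest on the deposited values. In raw values scaled to an equal total, the 3 nearest probes were the same for miR-15b, shared 2 of 3 for miR-497 and shared 0 of 3 for miR-15a, miR-16 and miR-195.

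RefSeq lists 10 mature mouse miRNAs with the seed AGCAGCA, of which the 5 members have a mature probe here. Another, miR-322, is represented by a hairpin-named probe, with a change of -0.33 (limma adjusted p = 0.201). Its human counterpart miR-424 has a probe that gave 0.21 (limma adjusted p = 0.708), a sign set by untreated animal 2, without which the change was -0.13 (limma adjusted p = 0.388). miR-503, whose seed differs from the family's in the last base, stood at 6.31 ± 0.24 (SD, n = 3) in 5-FU marrow and 7.71 ± 0.84 (SD, n = 5) in untreated marrow, a change of -1.40 (limma adjusted p = 0.0550). Among untreated animals, animal 2 had the lowest miR-503 value (6.91) and animal 3 the highest (9.10). Without untreated animal 2, an omission chosen for miR-424, the change of miR-503 was -1.60 and passed (limma adjusted p = 0.0363). In that setting 162 of the tested probes passed, against 154 with all animals. Other omissions are not shown for miR-503. In raw values scaled to an equal total the change of miR-503 was -0.73 (limma adjusted p = 0.216), with 6.93 to 7.42 in 5-FU animals and 7.26 to 8.78 in untreated animals, which overlap. The retired probe old_j-mir-16, whose sequence was not used here, fell by 3.37 (limma adjusted p = 0.00154). Its raw fluorescence was 62.5 in batch 1 and 124.5, 88 and 139 in batch 2 for 5-FU marrow, against 220, 293, 383, 460.5 and 808.5 for untreated marrow. The water well was at 22, so the signal was dim on the 5-FU arrays. Scaled to an equal total, the raw change was -2.35 (limma adjusted p = 0.00468). This probe is in the other bead pool than the current miR-16 probe.

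The blood and marrow markers were present on all arrays (8 of 8 probes, among them miR-223, miR-142 and miR-144), and 2 of the 8 fell (miR-451 and miR-150). Liver miR-122 and brain miR-124 and miR-9 were at or near the floor, although miR-124, at 3.27 to 3.66 in 5-FU animals and at the floor of 3 in all untreated animals, passed as higher. All marker calls are from the deposited values, which hold the batch 2 probe constants. There 15.6% of all tested probes were called higher and 25.1% lower. Of the stromal and smooth muscle markers 2 of 4 rose and 0 fell, with a summed normalized level of 3256 to 3981 in 5-FU animals and 1444 to 2584 in untreated animals. Both endothelial markers rose, with sums of 4906 to 5555 in 5-FU animals and 1983 to 3007 in untreated animals. All 3 skeletal muscle markers rose, with sums of 12797 to 13692 in 5-FU animals and 4807 to 9663 in untreated animals. All 4 lymphocyte markers fell, with sums of 5991 to 6815 in 5-FU animals and 11203 to 12165 in untreated animals. Of the 3 erythroid markers 1 fell (miR-451) and 0 rose. The part of these markers in the values of the family was not tested.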

How the data were processed

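The authors deposited log2 fluorescence, which the series' design text says was normalized on the assumption that samples hold the same total of miRNA. Its lowest value is 3. Raw bead fluorescence intensity and 3 background wells were deposited without normalization, per the file headers. Columns with the authors' p-value and false discovery rate were deposited too. No source used here names the upstream software. Summed raw fluorescence was 336483 to 679696 units an array, and the number of arrays limits the precision.

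The 2 arrays of 5-FU animal 1 were averaged and counted as 1 animal. Testing took the 379 of 582 probes that exceeded the floor in 3 or more animals and was done with limma 3.58.1 (R 4.3.3), lmFit and eBayes, two-sided, with Benjamini-Hochberg adjustment over all 379. Labels tell the animals within a group apart only by number, so p-values measure the spread between these samples. All untreated animals were in batch 1, and 5-FU animals 2 and 3 in batch 2. Limma p-values from fits over both batches without a batch term thus cannot separate 5-FU from batch. The series names Student's t-test, which was run as an alternative in its form with unequal variances. Partner differences were tested by exact permutation (scipy 1.17.1). The limma script was tested on simulated data. Raw alternatives subtracted the higher of 2 water wells, were scaled, floored at 8 and taken to log2. In the raw table untreated columns match deposited columns of other untreated animals, so untreated values are not paired across tables. Other alternatives covered arrays, batch, filters, tests and left-out animals.

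The text names the members, other probes of their loci, seed relatives with miR-503, the 3 probes with the steadiest ratio to each member, and markers. Members and lists were chosen with earlier results of these data known. Mature sequences (all 5 members matched) are from RefSeq, build GRCm38.p6.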

Additional observations from a re-analysis of the deposited data

Results flagged for a closer look

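The human-named miR-424 probe, whose mouse counterpart shares the family's seed, had a log2 value of 9.99 in untreated animal 2, against 11.47 in the nearest and 11.94 in the highest of the other untreated animals. Its gap was 0.757 of the group's whole range, above Dixon's 95% limit of 0.71 for 5 samples. Of 13 probes and differences examined in this way it was the only one past the limit, and chance alone passes about 5% of them. Without that animal the change of miR-424 was -0.13, against 0.21 with it.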

How the results depend on the processing

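miR-497 kept its direction under all 24 alternatives and miR-16 under 23 (in the quantile fit its change was 0), whereas miR-195 was above 0 in 7 of 24, miR-15a below 0 in 3 and miR-15b above 0 in 1. Many alternatives reuse the same arrays and values, so these counts are not independent. miR-195 changed to 0.45 with batch as a term, 0.45 within batch 1, 0.77, 0.73 and 0.91 in raw values scaled by total, by quantile and by control beads, and 0.77 and 0.43 with 2 settings chosen after seeing the data (equal totals per bead pool, and an equal total within batch 1). It passed at -0.84 with only the batch 2 array of 5-FU animal 1 and at -0.62 among probes above log2 7. Of these probes 88 of 158 passed, against 154 of 379 in the fit over all tested probes. The SE of miR-195 was 0.228 among probes above log2 7 and 0.240 in the fit over all tested probes. miR-15a was at -0.050, -0.054 and -0.049 in raw values scaled by total, by quantile and by pool totals. miR-15b passed at -0.18 with quantile and was at 0.18 after median centring, where miR-16 passed at 0.80. miR-497 passed at 1.25 (deposited, equal total), 1.57 (median centred), 1.44, 1.54 and 1.42 (raw: equal total, quantile, pool totals) and 1.11 among probes above log2 7. The cause of these moves was not tested beyond the probe constant of batch 2.

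Leaving out each animal gave 0.03 to 0.17 for miR-15a, -0.36 to -0.22 for miR-15b, 0.24 to 0.43 for miR-16, -0.83 to -0.49 for miR-195 and 0.82 to 1.31 for miR-497. Calls were gained without untreated animal 3 (miR-15b and miR-497), untreated animal 2 (miR-16), untreated animal 1 (miR-497) and 5-FU animal 1 (miR-195). The partner shifts ranged from -0.29 to -0.19 (miR-15a minus miR-16), -0.69 to -0.52 (miR-15b minus miR-16) and 1.51 to 1.98 (miR-497 minus miR-195), in designs that cannot go below an exact p of 0.0571. With the batch 1 array the first was -0.20 (exact permutation p = 0.143). Within batch 1 the 3 shifts were -0.017, -0.30 and 0.55, and in raw values the shifts with miR-16 were -0.054 and -0.18.

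Over all tested probes, calls (rises and falls) were 154 (59 and 95) in the deposited values and 95 (21 rises) with the batch 1 array, 37 (9 and 28) with batch as a term, 12 (4 and 8) within batch 1, 56 (27 and 29), 94 (47 falls) and 3 (2 and 1) in raw values scaled by total, by quantile and by control beads, 61 (30 and 31) with pool totals and 8 (3 and 5) for raw values within batch 1. Median centring gave 113 rises and 56 falls, probes above log2 7 gave 88 (18 rises), and the methods' t-test gave 97 (21 rises). Leaving out an animal gave 95 to 168 calls, 31 to 69 rises and 64 to 106 falls. With the animal number as a replicate block, 52 passed (11 and 41), and 0 members. Same-numbered animals share only a number, with correlations of 0.05, 0.35 and 0.17 between their deviations, and 5-FU animal 1 correlated best with untreated animal 3. Over the untreated animals alone, the 3 probes with the steadiest ratio shared 0, 0, 0, 1 and 1 with those over 8 animals for miR-15a, miR-15b, miR-16, miR-195 and miR-497. The ranking of such probes in raw values, and the settings of miR-424 and miR-503, were chosen after seeing the data.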
